A study of Mus musculus with 6 samples.

Results

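The 10 genes described here belong to the proximal tubule of the kidney: Miox, Acmsd, Gatm, Ass1, Ggt1, Acsm2, Spp2, Ttc36, Keg1 and Kap, most of which encode enzymes and some secreted or intracellular proteins of that nephron segment. The 10 were picked by name from the 13203 genes of the deposited expression table, and all 10 are in it. They were selected with their differences between the groups of this study in view. Those differences are therefore given as a description, with no p-value. The data are RNA sequencing, after depletion of ribosomal RNA, of whole kidneys from E17.5 mouse embryos. The 3 mutant kidneys carried floxed Brg1 alleles together with Six2Cre, and the 3 control kidneys carried floxed Brg1 alleles, with no Cre named in their labels. Effects of Six2Cre itself and of the loss of Brg1 cannot be told apart in this design. Six2 marks nephron progenitors, so the Cre acts in these cells and in the nephron epithelia they give rise to, and stroma, vessels and collecting duct have other origins. Brg1, encoded by Smarca4, is a motor subunit of the chromatin remodeller SWI/SNF, and the series asks about its part in the growth and differentiation of nephron progenitors. Strain and sex are not given in the labels.

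The proximal tubule takes back most of the filtered sugar, amino acids, phosphate and protein from the primary urine. Its cells are also a site of gluconeogenesis, of vitamin D activation, and of the making of arginine and of guanidinoacetate, the precursor of creatine. They carry peptidases and a glutamyl transferase on their brush border. Many of these genes come on late in kidney development, after the renal vesicle has formed segments, and depend on hepatocyte nuclear factors, which also act in the liver. Several of the 10 genes, such as Ass1, Spp2, Gatm and Ttc36, are also known to be active in liver. A table of whole organs does not show which cells hold a transcript, so whether the 10 are specific to the proximal tubule was not tested.

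Expression is given as normalised coverage, which is the number of bases read over a gene, brought by the authors to a common library total. It is printed in kb (1000 scaled bases), is not divided by gene length, and is named as a level per kb of exon where genes are compared with each other. The libraries are called mut1 to mut3 and con1 to con3. Before scaling they held 934 to 1209 Mb over the measured genes in mutant libraries and 726 to 1126 Mb in control libraries. Coverage of Smarca4 was 316, 333 and 268 kb in mutant libraries and 434, 419 and 371 kb in control libraries (log2 fold change -0.42, limma adjusted p = 0.00481). Differences are log2 fold changes of value + 1, with the standard error (SE) of limma, and genes outside the 10 were called at an adjusted p under 0.05 over all 13203 genes. By Xist and 4 Y-linked genes, mut1 and con3 came from male embryos and the other libraries from female ones, so each group holds 1 male.

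Promoter sequences of 3 genes that stood far apart between the groups or between libraries are given here from RefSeq on GRCm38.p6, the assembly of mm10. Each is the 250 bases upstream of a RefSeq transcript start, written 5′ to 3′ on the strand of the gene. Miox was among the genes with the lowest mutant levels relative to control. Kap and Acsm2 had the largest male minus female estimates of the 10 in limma (4.25 and 1.03, with Miox close at 0.99). None of the 10 passed for sex, and each group holds 1 male. Capitals mark matches, on either strand, to 1 of 4 searched motifs: GTTAAT and CAAAGTCCA, letters from motifs of hepatocyte nuclear factors, TATAAA for the TATA box, and TGTTCT, from the motif of steroid hormone receptors.
Miox, chr15:89334223-89334472, plus strand: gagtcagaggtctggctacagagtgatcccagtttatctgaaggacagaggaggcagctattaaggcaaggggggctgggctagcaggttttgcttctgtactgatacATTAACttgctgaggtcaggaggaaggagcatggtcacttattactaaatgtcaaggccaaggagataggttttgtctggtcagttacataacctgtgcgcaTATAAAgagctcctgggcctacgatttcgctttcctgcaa
Acsm2, chr7:119554090-119554339, plus strand: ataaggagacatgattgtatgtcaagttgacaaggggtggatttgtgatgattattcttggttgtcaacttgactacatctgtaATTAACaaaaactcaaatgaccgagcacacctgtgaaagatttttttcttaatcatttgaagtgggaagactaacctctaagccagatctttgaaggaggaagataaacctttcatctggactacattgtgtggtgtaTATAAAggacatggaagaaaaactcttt
Kap, chr6:133853668-133853917, minus strand: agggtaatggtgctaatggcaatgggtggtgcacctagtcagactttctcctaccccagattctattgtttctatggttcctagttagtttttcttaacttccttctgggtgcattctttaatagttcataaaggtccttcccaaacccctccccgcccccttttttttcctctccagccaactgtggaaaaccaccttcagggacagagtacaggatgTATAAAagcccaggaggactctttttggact
The Miox window held a GTTAAT match 142 bases and a TATA match 40 bases upstream of the start. The Acsm2 window shown held the same pair, at 166 and 28 bases upstream, and the Kap window held a TATA match 31 bases upstream. RefSeq gave 13 windows for 9 of the 10 genes. In the windows not shown, Ggt1 had a TATA match 134 bases and Spp2 a TGTTCT match 181 bases upstream. A further Acsm2 window (chr7:119561458-119561707) held no match. Of all 32851 mouse windows of this length, 6.43% held GTTAAT, 0.384% CAAAGTCCA, 12.4% the TATA motif and 16.1% TGTTCT. A match describes letters in these windows and is no evidence of binding.

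Coverage of all 10 genes was lower on average in mutant than in control kidneys, from 5.47% of the control mean for Acmsd to 38.7% for Keg1. In 9 of the 10 all 3 mutant values lay below all 3 control values, and Kap was the gene whose groups overlapped. Over all genes, 29.8% had all mutant values below all control values. The same 9 genes passed the limma threshold in the lower direction, as did 24.6% of all genes, and none of the 10 passed in the higher direction, as 21.5% of all genes did. Nothing is read from these counts, since the genes were chosen on this contrast. The deposited table holds genes with a group mean above 3400 scaled bases, and Miox, Acmsd, Ass1 and Kap are in it only through their control means, since their mutant means lie below that level. Genes outside the 10 can enter the same way. For example, Acsm1, Acsm5, Kynu, Aldh8a1, Nr1h4 and Bhmt2 are in it only through control means, and Nmnat2, Nos2 and Ahsg only through mutant means. This rule favours large differences among such genes. The median log2 fold change of the 10 was -2.32, against -0.03 over all genes. Whole-organ RNA cannot tell fewer proximal tubule cells from less RNA per cell.

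**Figure D1:**
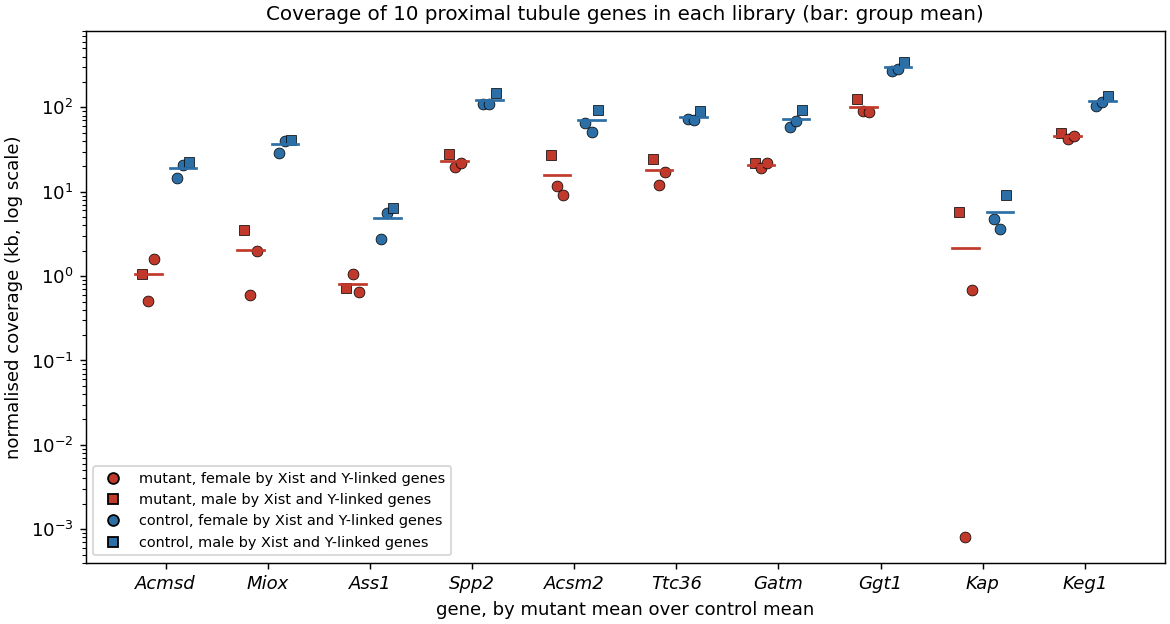
Normalised coverage in kb on a log scale for each of the 10 genes, with 1 point per library, mutant in red left of control in blue, squares for male and circles for female libraries, and a bar for the group mean. Mutant points lie below control points for 9 genes, and the Kap points overlap, with mut1 at 5.78 kb and mut2 at 0.000807 kb, which is 0 covered bases.

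Miox encodes myo-inositol oxygenase, the kidney enzyme that opens the inositol ring in the first step of inositol breakdown (chromosome 15, 89334398 to 89337015, plus strand, mm10). Its coverage was 3.52, 0.605 and 1.96 kb in mutant libraries, against 29.0, 39.8 and 41.4 kb in control libraries. Every mutant value lay far below the lowest control value, and mut2 was the lowest of all. The means were 2.03 ± 1.46 kb in mutant and 36.7 ± 6.73 kb in control kidneys (SD, n = 3 each), so the mutant mean was 18.1-fold lower (log2 fold change -4.49, SE 0.49). The value was -3.79 without mut2. Before scaling, Miox had 3371, 748 and 2251 covered bases in mutant libraries and 21579, 30186 and 47734 in control libraries. In mut2 that is 0.453 times the exon length of the gene, so few reads stand behind this value.

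Around Miox, genes of inositol supply and of the glucuronate route moved in both directions. Of 11 other measured genes of this list 4 fell, 2 rose and 5 did not pass, with a median log2 fold change of -0.15. Xylb, the xylulokinase that acts at the end of the glucuronate route, fell to 21.5 ± 3.09 kb in mutant kidneys, against 75.1 ± 20.7 kb in control kidneys (log2 fold change -1.77, limma adjusted p = 2.37e-05). The inositol carriers Slc5a11 (-1.43) and Slc5a3 (-0.52) fell, and the proton-coupled inositol carrier Slc2a13 rose (0.69). Dcxr, an L-xylulose reductase of the same route, fell (-0.63), and Ugdh, which makes UDP-glucuronate, rose (0.23). Isyna1, which makes inositol from glucose 6-phosphate, had a log2 fold change of -0.06 and did not pass. The call for Dcxr (adjusted p = 0.0127) was lost without con1 (0.0574) or mut3 (0.0502), over a range of 0.00793 to 0.0574. The call for Ugdh (adjusted p = 0.0392) was lost without con1 (0.122), con2 (0.134) or mut3 (0.120), with no variance trend (0.0735) and without small RNA genes (0.0575), over a range of 0.0230 to 0.134.

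Acmsd encodes the decarboxylase that draws an intermediate of tryptophan breakdown away from the making of NAD (chromosome 1, 127729413 to 127767978, plus strand). Its coverage was 1.07, 0.508 and 1.59 kb in mutant libraries, against 14.7, 20.8 and 22.4 kb in control libraries. The groups were far apart, and again mut2 was the lowest library. The mean was 1.05 ± 0.540 kb in mutant and 19.3 ± 4.09 kb in control kidneys, 18.3-fold lower in mutant (log2 fold change -4.32, SE 0.39). At a pseudocount of 1000 the value was -3.32. An antisense gene, 2900009J06Rik, overlaps Acmsd, and since the use of strand in counting is not given in the sources used here, their reads cannot be told apart.

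Of 10 other measured genes between tryptophan and NAD 5 fell, 1 rose and 4 did not pass, with a median log2 fold change of -0.42, and 5 further genes of the list (Tdo2, Ido1, Ido2, Kmo and Haao) were not among the genes measured. The falls included other enzymes of the same route. Of these, Kynu and Aldh8a1 are in the deposited table only through their control means, and Nmnat2, which rose, only through its mutant mean. Kynu, the kynureninase, fell to 1.48 ± 0.321 kb in mutant kidneys, against 7.38 ± 1.33 kb in control kidneys (log2 fold change -2.33, limma adjusted p = 0.000157). Aldh8a1, the dehydrogenase that acts just after Acmsd, fell (-2.43), and so did Qprt, which makes the first NAD precursor from quinolinate (-1.08). The adenylyltransferase Nmnat3 fell (-1.03) whereas Nmnat2, a neuronal form of that enzyme, rose (1.68). Nadsyn1, the NAD synthetase, fell (-0.53, adjusted p = 0.0203), a call lost without con2 (0.0798), con3 (0.0510) or mut3 (0.0771), over a range of 0.00838 to 0.0798.

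Gatm encodes glycine amidinotransferase, the kidney enzyme of creatine synthesis, which makes guanidinoacetate from arginine and glycine (chromosome 2, 122594467 to 122611303, minus strand). Its coverage was 22.0, 19.2 and 21.8 kb in mutant libraries, against 58.4, 68.7 and 93.0 kb in control libraries. The mutant libraries were close to each other and all lay below the control libraries, of which con3 was the highest. The means were 20.99 ± 1.58 and 73.4 ± 17.8 kb in mutant and control kidneys, and the log2 fold change was -1.78 (SE 0.16). Of 5 other measured creatine genes 1 fell, 2 rose and 2 did not pass, with a median of 0.35. The creatine carrier Slc6a8 fell (-0.52, limma adjusted p = 0.00378). The creatine kinases Ckb (0.72, adjusted p = 0.00486) and Ckmt1 (0.33, adjusted p = 0.0348) rose. Gamt, which turns guanidinoacetate into creatine, did not pass (0.35, adjusted p = 0.198). The call for Ckmt1 was lost without con1 (0.0626), con2 (0.138), con3 (0.0529), mut1 (0.0625) or mut2 (0.102) and in the 4 female libraries (0.0785), over a range of 0.0111 to 0.138.

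Ass1 encodes argininosuccinate synthase, which with Asl makes arginine from citrulline in the proximal tubule (chromosome 2, 31470207 to 31520672, plus strand). Its coverage was 0.720, 1.05 and 0.646 kb in mutant libraries, against 2.78, 5.66 and 6.37 kb in control libraries. The groups did not overlap, but the control values spread by more than 2 kb, with con1 well below con2 and con3. The means were 0.806 ± 0.216 kb in mutant and 4.94 ± 1.90 kb in control kidneys (log2 fold change -2.56, SE 0.47, and -1.67 at a pseudocount of 1000). Ass1 is uncertain in 2 ways. It had 688 to 1302 covered bases in mutant libraries and 2064 to 7352 in control libraries, below 1 time its exon length in each mutant library. A near-identical copy, Gm5424, shares 1240 bases at 99.5% identity, and how the authors counted such reads is not given in the sources used here.

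Of 10 other measured genes of arginine use and transport 5 fell, 1 rose and 4 did not pass, with a median of -0.38. Asl, the argininosuccinate lyase that follows Ass1, fell to 32.2 ± 7.26 kb in mutant kidneys, against 47.2 ± 5.13 kb in control kidneys (log2 fold change -0.57, limma adjusted p = 0.0105). Ddah1, which breaks down methylated arginines, fell (-0.91), as did the ornithine decarboxylase Odc1 (-0.97). The amino acid carriers Slc7a7 (-0.65) and Slc7a9 (-0.93) also fell. Nos2, the inducible nitric oxide synthase, rose (0.79, adjusted p = 0.0409), but the call was lost whichever library was left out: con1 (0.0647), con2 (0.0830), con3 (0.0966), mut1 (0.0633), mut2 (0.129) or mut3 (0.0617). It was also lost under quantile normalisation (0.0662) and in the 4 female libraries (0.106), with a range of 0.00444 to 0.129. Arg1, Otc, Cps1 and Nags were not among the genes measured.

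Ggt1 encodes gamma-glutamyltransferase, the brush border enzyme that begins the breakdown of extracellular glutathione (chromosome 10, 75561604 to 75586200, plus strand). Its coverage was 126, 90.9 and 87.1 kb in mutant libraries, against 267, 282 and 349 kb in control libraries. Within the mutant group mut1 stood above the other two, and even so it lay well under every control library. The means were 101 ± 21.2 and 299.5 ± 43.6 kb in mutant and control kidneys (log2 fold change -1.58, SE 0.14). Of 14 other measured glutathione genes 8 fell, 3 rose and 3 did not pass, with a median of -0.85. The glutathione peroxidase Gpx4 (-1.62), the glutathione reductase Gsr (-1.30), the glutathione synthetase Gss (-0.95) and Gclm, the regulatory subunit of the enzyme that makes gamma-glutamylcysteine (-0.94), fell. Of the peptidases that follow Ggt1, Anpep fell to 59.9 ± 6.67 kb in mutant kidneys, against 117 ± 11.5 kb in control kidneys (-0.96, limma adjusted p = 3.99e-05), and Lap3 fell as well (-0.72). Dpep1, the dipeptidase of the brush border, fell (-0.86, adjusted p = 0.0310), a call lost without con2 (0.0705), con3 (0.126), mut1 (0.0959) or mut2 (0.0871), with no variance trend (0.0903) and in the 4 female libraries (0.286), over a range of 0.00491 to 0.286. The related transferase Ggt5 (0.69), the oxoprolinase Oplah (0.61) and the peroxidase Gpx1 (0.41) rose.

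Acsm2 encodes a medium-chain acyl-CoA synthetase of kidney mitochondria (chromosome 7, 119554340 to 119600690, plus strand), and Keg1 a glycine N-acyltransferase-like protein named for its expression in kidney (chromosome 19, 12695786 to 12719902, plus strand). Acsm2 coverage was 26.9, 11.8 and 9.19 kb in mutant libraries, against 65.6, 51.3 and 93.1 kb in control libraries. The groups did not overlap, and mut1 and con3, the male libraries, were the highest of their groups. The means were 16.0 ± 9.57 and 70.0 ± 21.3 kb in mutant and control kidneys (log2 fold change -2.25, SE 0.33). Keg1 coverage was 49.5, 42.5 and 46.1 kb in mutant libraries, against 104, 115 and 138 kb in control libraries. Keg1 varied little within the mutant group and was the gene of the 10 with the smallest difference (38.7% of control, log2 fold change -1.36, SE 0.11). Keg1 overlaps the antisense gene Gm15962, whose reads cannot be told apart from its own.

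All 10 other measured genes of a list on acyl-CoA and glycine conjugation fell, with a median of -0.82. Besides genes of acyl-CoA activation and glycine conjugation, the list holds Glyctk, Acad11 and Ehhadh. The losses were largest in the relatives of Acsm2, though Acsm1 and Acsm5 are in the deposited table only through their control means. Acsm1 fell to 2.08 ± 0.886 kb in mutant kidneys, against 12.5 ± 4.44 kb in control kidneys (log2 fold change -2.62, limma adjusted p = 0.000133), and Acsm5 fell by 2.67 on the log2 scale (adjusted p = 0.00220). Glyat, the glycine N-acyltransferase, fell to 9.28 ± 2.66 kb, against 29.3 ± 1.72 kb in control kidneys (-1.69). Glyctk, the glycerate kinase, fell too (-2.15). The long-chain synthetases Acsl1, Acsl3, Acsl4 and Acsl5 fell by 0.59, 0.84, 0.63 and 0.59 on the log2 scale, and Ehhadh, of peroxisomal fatty acid oxidation, fell by 0.80. Acad11, an acyl-CoA dehydrogenase, fell by 0.40 (adjusted p = 0.0105), a call lost without con2 (0.0597), over a range of 0.00691 to 0.0597.

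Ttc36 encodes a tetratricopeptide repeat protein (chromosome 9, 44799397 to 44803072, minus strand), described in mice as a guard of the tyrosine breakdown enzyme HPD. Its coverage was 24.7, 12.1 and 16.9 kb in mutant libraries, against 72.1, 71.7 and 90.0 kb in control libraries. All mutant values lay below the control values, with mut1 the highest of the mutant libraries. The means were 17.9 ± 6.40 and 77.9 ± 10.4 kb in mutant and control kidneys (log2 fold change -2.17, SE 0.21). An antisense gene, Gm48702, shares 341 bases with Ttc36, so its reads are not separable here. All 6 other measured genes of phenylalanine and tyrosine breakdown fell, with a median of -1.12. Hgd, the homogentisate dioxygenase, fell to 3.57 ± 1.18 kb in mutant kidneys, against 14.3 ± 1.30 kb in control kidneys (-2.04, limma adjusted p = 6.9e-05). Fah, the fumarylacetoacetase at the end of the route, fell as well (-1.56). Gstz1 (-0.68) and the biopterin genes Qdpr (-0.62) and Pcbd1 (-0.60) fell less.

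Spp2 encodes a secreted phosphoprotein of the cystatin superfamily, first described in bone of cattle (chromosome 1, 88406961 to 88426438, plus strand). Its coverage was 28.3, 19.5 and 21.9 kb in mutant libraries, against 110, 110 and 147 kb in control libraries. The groups lay far apart relative to their spread. The means were 23.2 ± 4.56 and 122 ± 21.7 kb in mutant and control kidneys (log2 fold change -2.40, SE 0.15). Of 5 other measured genes of cystatins and secreted proteins 1 fell and 4 rose, with a median of 0.40. Kng2, a kininogen, fell to 8.44 ± 0.920 kb in mutant kidneys, against 21.9 ± 1.17 kb in control kidneys (-1.38, limma adjusted p = 3.04e-05), while Cst3, the cystatin found in most tissues, rose (0.50, adjusted p = 0.00726). Cstb (0.40), Apoe (0.38) and Ahsg, a fetuin (3.19), rose, but each of these 3 calls was lost when certain libraries were left out. The Cstb call (adjusted p = 0.0354) was lost without con1 (0.158), con3 (0.0534), mut1 (0.0694) or mut3 (0.124), with no variance trend (0.0637) and in the 4 female libraries (0.0941), over a range of 0.0134 to 0.158. The Apoe call (0.0284) was lost without con1 (0.0918), con2 (0.113), mut1 (0.0776) or mut3 (0.113) and with no variance trend (0.0801), over a range of 0.00424 to 0.113. The Ahsg call (0.0285) was lost without con1 (0.0522), con3 (0.0651), mut1 (0.0826) or mut3 (0.145), with no variance trend (0.0573) and in the 4 female libraries (0.147), over a range of 0.00879 to 0.147.

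Kap encodes kidney androgen-regulated protein, an abundant transcript of the mature mouse proximal tubule that androgens raise (chromosome 6, 133849851 to 133853762, minus strand). Its coverage was 5.78, 0.000807 and 0.689 kb in mutant libraries, against 4.69, 3.57 and 9.07 kb in control libraries. The male mutant library mut1 lay above both female control libraries, so the groups overlapped, while mut2 had no covered base of Kap. The mutant mean was 2.15 ± 3.15 kb and the control mean 5.78 ± 2.91 kb, 37.3% of control. The log2 fold change of -4.79 (SE 2.15) rests on the library with 0 bases. It was -1.42 without mut2, -7.24 without mut1 and -1.51 (SE 0.56) at a pseudocount of 1000.

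Sex moved with the Kap values. Between the male libraries, mutant Kap coverage was 63.7% of control, and between the female libraries it was 8.35%. The male library had 16.7 times the mean of the female libraries in mutant kidneys and 2.20 times in control kidneys. The values of 8.35% and 16.7 rest in part on mut2, which had no covered base of Kap. The summed coverage of 15 proximal tubule markers had smaller ratios, 1.24 in mutant and 1.23 in control kidneys. With sex as a term in the limma model, the male minus female estimate was 4.25 (SE 2.02, adjusted p = 0.659) for Kap, 1.03 (SE 0.18, adjusted p = 0.193) for Acsm2 and 0.99 (SE 0.45, adjusted p = 0.651) for Miox. None of the 10 genes passed for sex, where 4 genes or 0.0303% of all did (Cyp2j13, Eif2s3x, Kdm6a and Xist). At an unadjusted p under 0.05 the limma sex term held for 6 of the 10 and for 1007 of all 13203 genes. The 6 were Gatm, Ggt1, Acsm2, Spp2, Ttc36 and Keg1. Kap (unadjusted p = 0.0624) and Miox (0.0543) were not among them. Each group has 1 male, so sex and the library cannot be told apart.

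Of the 5 other measured genes of androgen action and known androgen response in kidney 2 fell and 3 rose, with a median of 0.42. Odc1, whose androgen response in mouse kidney is well known, fell to 28.7 ± 4.13 kb in mutant kidneys, against 55.8 ± 6.35 kb in control kidneys (log2 fold change -0.97, limma adjusted p = 0.000132). The number of falls in this list was 1 without con1 or con2. Gusb, the beta-glucuronidase (0.47), Srd5a1, which makes dihydrotestosterone (0.60), and Hsd17b11 (0.42) rose.

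**Figure D2:**
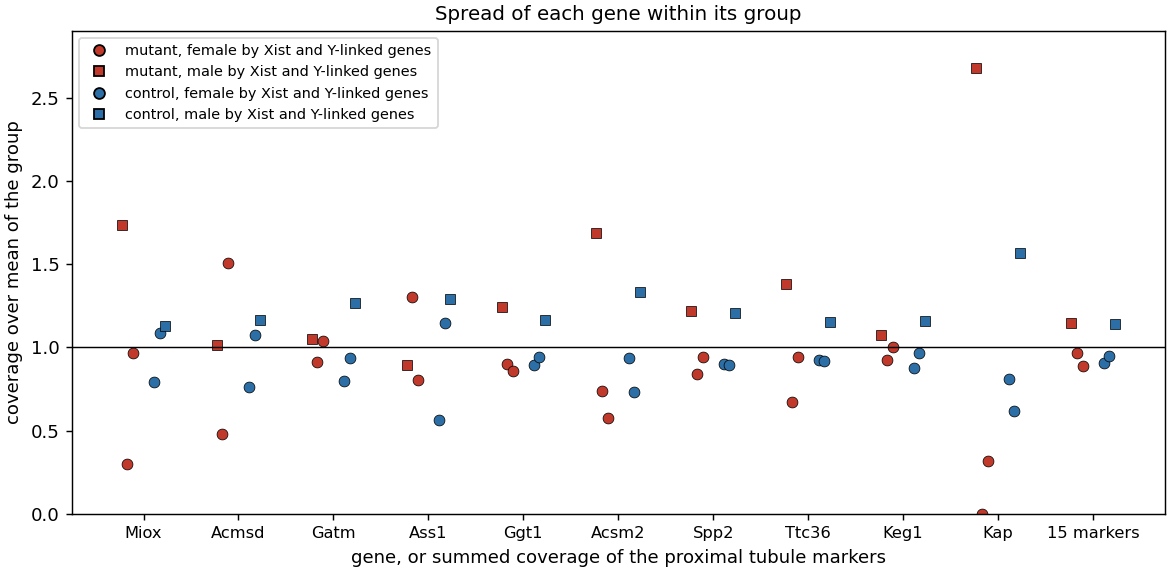
Coverage of each gene in each library divided by the mean of its own group, with the summed coverage of 15 proximal tubule markers at the right, mutant in red left of control in blue, squares for male and circles for female libraries. The male control library con3 is the highest control for all 10 genes, and for Kap the male mutant library stands furthest above its group.

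Within groups, the 10 genes tended to be high in the same libraries. Library con3 had the highest control value for 10 of the 10 genes, and mut1 had the highest mutant value for 8, while mut2 had the lowest for 7. The summed coverage of the 10 genes was 288, 198 and 208 kb in mutant libraries and 729, 769 and 990 kb in control libraries. That is 0.0295%, 0.0203% and 0.0213% of the coverage of the mutant libraries and 0.0746%, 0.0787% and 0.101% of that of the control libraries. After removal of group means, the log2 deviations of 41 of 45 pairs of the 10 genes had a Pearson r above 0, with a median r of 0.59 over the 6 libraries. Gatm and Keg1 moved closely together (r = 0.97), as did Miox and Kap (r = 0.98), and the lowest r was that of Ass1 and Kap (-0.40). The r values of Kap rest largely on mut1 and mut2, where its log2 deviations were 4.90 and -6.74. In mut2 Kap had no covered base, so that deviation depends on the pseudocount. The summed coverage of the proximal tubule markers was also highest in mut1 (1220 kb) among mutant and in con3 (5213 kb) among control libraries. The same counts were not taken over all genes, so nothing particular to the 10 is read from them. The 6 libraries share their scaling to a common total, and these values are a description of few points.

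The spread within a group differed widely among the 10 genes. In mutant kidneys the coefficient of variation over 3 libraries was 7.55% for Gatm, 7.57% for Keg1 and 19.6% for Spp2, and it reached 51.3% for Acmsd, 59.9% for Acsm2, 72.0% for Miox and 146% for Kap. In control kidneys it lay between 13.4% for Ttc36 and 50.3% for Kap, with 18.3% for Miox. Gatm ranged over 19.2 to 22.0 kb in mutant libraries and over 58.4 to 93.0 kb in control libraries. Depth behind the values differed as well. Ggt1 was read 29.4 to 35.2 times over its exon length in mutant libraries and 58.2 to 118 times in control libraries, and Spp2 24.3 to 27.3 times in mutant libraries and 82.5 to 171 times in control libraries. Acmsd was read 0.222 to 0.645 times over its length in mutant libraries and 3.85 to 9.14 times in control libraries. The low mutant values of Acmsd, Ass1 and Miox therefore rest on less coverage than those of Ggt1, Spp2, Ttc36, Gatm and Keg1. Spread did not follow depth throughout, since the mutant coefficient of variation was 26.8% for Ass1 and 35.7% for Ttc36.

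The mutant level relative to control was also taken within the male pair and within the female libraries, without a test of the difference between them. Spp2 was at 19.2% of control in the male pair and 18.8% in the female libraries, and Ggt1 at 36.0% and 32.4%. For Keg1 the shares were 35.9% in the male pair and 40.4% in the female libraries, and for Gatm 23.7% and 32.2%. Ttc36 stood at 27.5% in the male pair and 20.2% in the female libraries, and Acsm2 at 28.9% and 18.0%. Miox was at 8.51% in the male pair and 3.72% in the female libraries, and Acmsd at 4.75% and 5.92%. Ass1 was at 11.3% in the male pair and 20.1% in the female libraries. Each male value rests on 1 library per group, and apart from Kap the shares in the male pair and in the female libraries were each at most 40.4%.

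The genes most like the mean log2 profile of the 10 over the 6 libraries, with each gene standardised to the same spread, were Dusp3, Slc6a20b, Stard10, Wdr74 and Slc7a12, each with r of at least 0.998. Slc6a20b, an amino acid carrier, had 6.15, 2.99 and 4.06 kb in mutant libraries and 20.6, 26.3 and 33.9 kb in control libraries. Slc7a12, also an amino acid carrier, had 3.33, 1.67 and 2.0 kb in mutant libraries and 13.03, 14.99 and 21.03 kb in control libraries. Likeness of profile was common, since 1688 genes had r above 0.9 on this measure. On deviations from group means, scaled alike for each gene, the most alike were Nat8, Ap2m1, Slc19a1, Snx24 and Gpd1, and 476 genes had r above 0.9.

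Per kb of exon the order of the 10 genes differed between the groups. In mutant kidneys the mean level per kb of exon was highest for Ggt1 (29.7 ± 6.22), followed by Spp2 (23.4), Ttc36 (19.5), Keg1 (8.12), Gatm (6.99), Kap (3.05), Acsm2 (2.15), Miox (1.23), Acmsd (0.372) and Ass1 (0.334). In control kidneys it was highest for Spp2 (123 ± 21.9), followed by Ggt1 (87.8), Ttc36 (84.9), Gatm (24.4), Miox (22.3), Keg1 (20.99), Acsm2 (9.43), Kap (8.17), Acmsd (6.81) and Ass1 (2.04). Miox was thus at place 8 in mutant and place 5 in control kidneys. Among neighbours in the mutant order, Ttc36 and Keg1 and then Keg1 and Gatm did not overlap over libraries, and the ranges of the other neighbours did. Among neighbours in the control order, Spp2 and Ggt1, Ttc36 and Gatm, Keg1 and Acsm2, and Acmsd and Ass1 did not overlap, and the others did.

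The 10 genes were also set against a list of 15 proximal tubule markers. The list holds transporters, the endocytic receptors Lrp2 and Cubn, the regulator Hnf4a and the scaffold Pdzk1. All 15 markers fell, with a median log2 fold change of -1.90 and a range of -2.98 (Slc13a3) to -1.38 (Slc6a19). That range was taken at a pseudocount of 1 only. Miox and Acmsd lay below it at both pseudocounts, Kap lay below it at a pseudocount of 1 and within it at 1000, and Keg1 lay just above it. When each gene was expressed relative to the mean log2 value of the 15 markers in the same library, Miox stood at -2.88, -5.09 and -3.47 in mutant libraries, against -1.49, -1.19 and -1.40 in control libraries. Acmsd stood at -4.61, -5.34 and -3.77 in mutant libraries, against -2.47, -2.13 and -2.28 in control libraries. Keg1 lay on the other side, at 0.93, 1.05 and 1.09 in mutant libraries, against 0.36, 0.34 and 0.34 in control libraries. Relative to the markers, 3 genes (Miox, Acmsd and Spp2) were lower in every mutant library, 2 (Ggt1 and Keg1) were higher in every mutant library and 5 overlapped. The same count was not taken over all genes, so nothing particular to the 10 is read from it. These are descriptions of genes chosen on the same contrast.

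**Figure D3:**
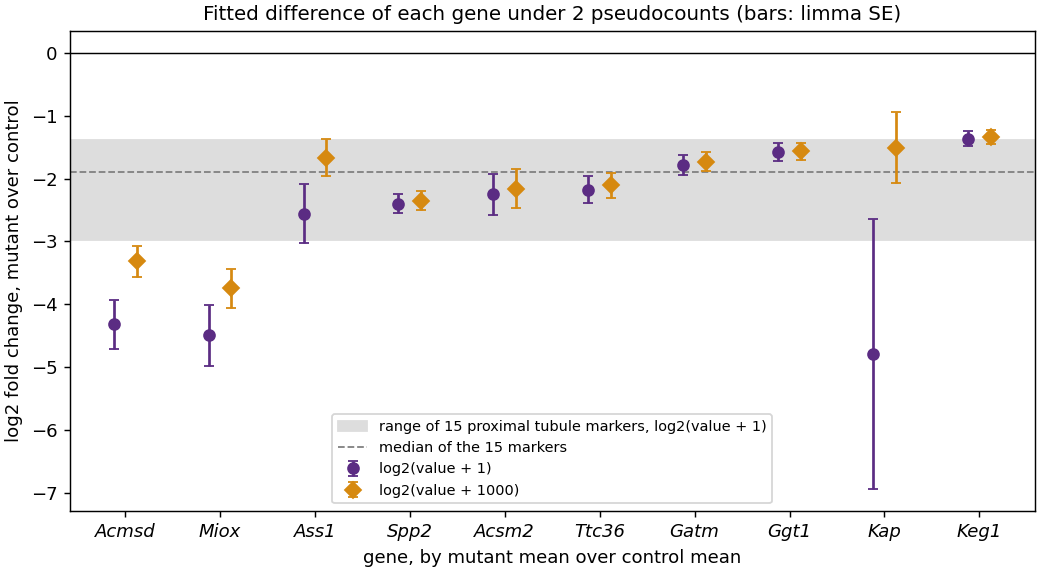
Log2 fold change of mutant over control for each of the 10 genes with the limma SE, at a pseudocount of 1 (circles) and 1000 (diamonds), beside the range (grey band, -2.98 to -1.38) and median (dashed line, -1.90) of 15 proximal tubule markers. The band and dashed line are at a pseudocount of 1 only. Acmsd and Miox lie below the band under both pseudocounts, and Kap moves from -4.79 to -1.51 with the pseudocount.

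Regulators of the proximal tubule programme were mostly lower as well. Of 14 measured regulators 9 fell, 2 rose and 3 did not pass, with a median log2 fold change of -0.85. Hnf4a, the nuclear receptor of proximal tubule differentiation, fell to 111 ± 27.5 kb in mutant kidneys, against 377 ± 31.8 kb in control kidneys (-1.80, limma adjusted p = 5.91e-06). It is also in the marker list above, so the lists are not independent. Hnf4g, a relative of Hnf4a, fell (-1.21), as did the bile acid receptor Nr1h4 (-1.22). The regulators of mitochondrial and fatty acid metabolism Ppargc1a (-0.95), Esrra (-0.75) and Ppara (-0.69) fell too. Maf, Cebpa and Cebpb did not pass. Foxo1 (0.30, adjusted p = 0.0210) and Nfe2l2 (0.37, adjusted p = 0.0173) rose. The Foxo1 call was lost without con1 (0.0911), con2 (0.0782) or mut3 (0.0747), over a range of 0.00985 to 0.0911, and the Nfe2l2 call without con1 (0.0864), con2 (0.0579) or mut3 (0.0653) and with no variance trend (0.0555), over a range of 0.00245 to 0.0864.

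Of 41 other enzymes and brush border proteins of the proximal tubule 38 fell, 1 rose and 2 did not pass, with a median of -1.61. The largest falls were in Bhmt2, a methyltransferase of methionine synthesis, which fell to 1.93 ± 0.407 kb in mutant kidneys, against 14.1 ± 2.66 kb in control kidneys (log2 fold change -2.87, limma adjusted p = 8.74e-06), and in Pbld1 (-2.47) and the meprin subunit Mep1b (-2.41). Bhmt2 is in the deposited table only through its control mean. Pdzk1, the scaffold of brush border transporters, which is also in the marker list above, fell (-2.03), and so did Mep1a (-1.58). The call of Pck1 among the 38 falls (-0.78, adjusted p = 0.0256) was lost without mut2 (0.0709), mut3 (0.110), con1 (0.0519) or con2 (0.0902) and with no variance trend (0.0874), and the range was 0.000127 to 0.110. Over all 11 pathway lists 129 genes other than the 10 were measured, of which 88 fell, 19 rose and 22 did not pass, with a median of -0.79. Of the 107 called, 14 lost their call when a single library was left out.

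**Figure D4:**
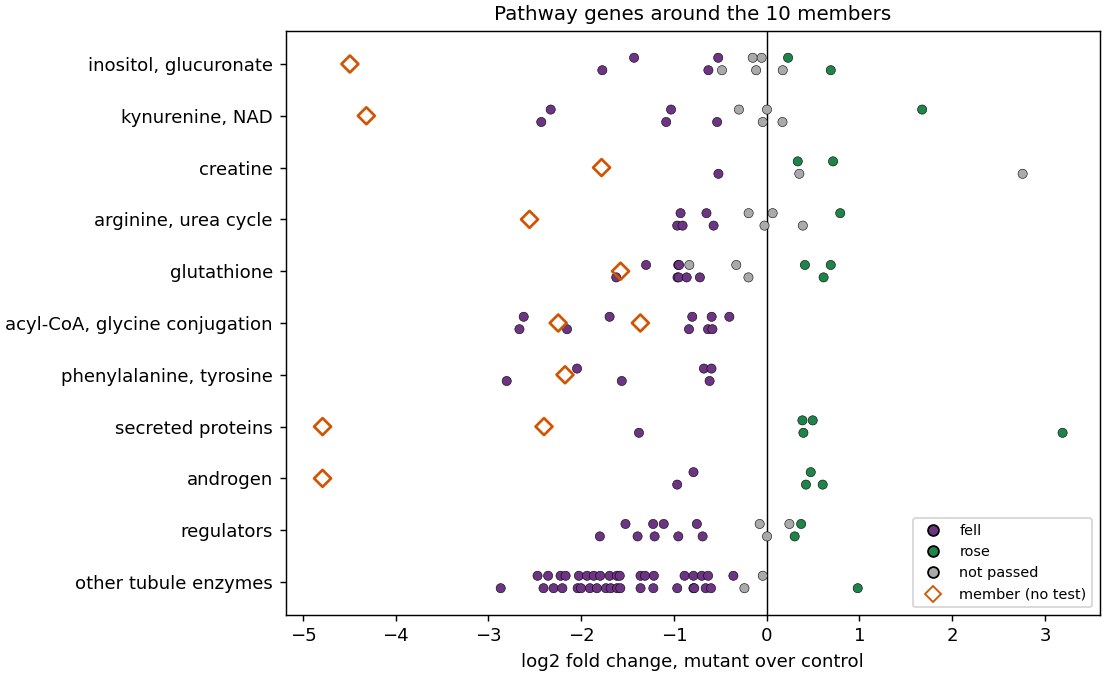
Log2 fold change of mutant over control for every measured gene of 11 pathway lists, with genes that fell in purple, genes that rose in green, genes that did not pass in grey, and the 10 members as open diamonds with no test. All points of the acyl-CoA and of the tyrosine list lie below 0, while the inositol, creatine and secreted protein lists spread to both sides.

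Markers of other cell types moved with the groups as well. All 8 stromal markers rose, with a median log2 fold change of 1.56, Col3a1 (0.76) and Col1a1 (0.82) among them, with summed coverage of 6807 to 8582 kb in mutant libraries and 3304 to 3479 kb in control libraries. Leukocyte markers rose in 7 of 8 (median 1.07, C1qb 1.12, Lyz2 0.60), at 230 to 261 kb in mutant libraries and 114 to 129 kb in control libraries. Erythroid markers rose in 4 of 6 (median 0.66, Hba-a2 1.24, Hba-a1 0.94), at 5208 to 5877 kb in mutant libraries and 2465 to 2660 kb in control libraries. Podocyte markers fell in 7 of 8, markers of the loop and distal tubule in 5 of 7, and progenitor markers in 6 of 8. Of the 8 markers each of collecting duct and endothelium, 5 and 4 did not pass. Since the libraries were scaled to a common total, a larger share for some genes leaves a smaller share for the others. The part of these shifts in the values of the 10 genes was not tested.

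Liver markers, which bear on genes that the liver also expresses, went both ways. Of 6 measured liver markers 3 fell and 3 rose, with summed coverage of 80.6 to 123 kb in mutant libraries and 155 to 228 kb in control libraries. Afp fell (-1.40) and Ttr fell (-1.41, limma adjusted p = 0.0127, lost without con1 at 0.0862, over a range of 0.00553 to 0.0862). Alb had 23.5, 7.38 and 26.4 kb in mutant libraries and 2.85, 8.98 and 1.29 kb in control libraries, so that its groups overlapped. The part of these markers in the values of Ass1, Spp2, Gatm and Ttc36 was not tested. The 3 that rose include Ahsg, whose call was lost without con1 (0.0522), con3 (0.0651), mut1 (0.0826) or mut3 (0.145), with no variance trend (0.0573) and in the 4 female libraries (0.147), over a range of 0.00879 to 0.147. No adrenal marker of the 8 listed was among the genes measured.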

How the data were processed

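Libraries were made with an Ion Total RNA-seq kit from 1 µg of RNA per kidney after ribosomal depletion, per the labels' protocols. The submitters' processing notes name mm10 and bedtools, while aligner, annotation and use of strand are not given in the sources used here. A coverage signal per gene, with a ratio and q-value, was deposited by the authors. Low values fell on whole steps in each library (100% within 0.02 of a step), so the deposited signal was read as covered bases plus 1 after scaling to equal totals, without division by length. The number of reads is unknown, so no counting interval is given. The deposited table holds genes with a group mean above 3400. The authors' deposited ratio and q-value columns are not reported.

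Columns name a group and a running number, so libraries were assigned to groups only. Log2(value + 1) was fitted by limma 3.58.1 (R 4.3.3) using a variance trend, two-sided, adjusted by Benjamini-Hochberg over 13203 genes. A filter on values above 1 in at least 3 libraries removed none of them. Whether the kidneys came from separate litters is not stated, so p-values measure the spread between these samples. The procedure was tested on simulated data. The 10 genes and all gene lists were chosen with earlier results of these data known. Named genes are the 10, the short pathway lists, the extremes and highest levels of the longer lists, and the 5 genes nearest in profile. A few of these genes are not reported here. Coordinates and exon lengths are from GENCODE M21 on mm10, promoters from RefSeq. Alternatives covered scaling, pseudocount, filter, variance trend, sex, small RNA genes and each library left out. A fit of the 4 female libraries was added after seeing the data.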

Additional observations from a re-analysis of the deposited data

How the results depend on the processing

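The lower coverage of the 10 genes kept its sign under every alternative run for it. These were 16 for each of 6 genes and 15 for Miox, Acmsd, Ass1 and Kap, whose means lie below the median of all genes. Of 156 values none reversed and 2 were counted as moved by more than 1 SD, those of Acmsd (-3.32) and Ass1 (-1.67) at a pseudocount of 1000. Changes of filter, variance trend, sex term or gene limit could not move a fold change here, so those values equal the main ones by design. Kap went from -4.79 to -1.42 without mut2 and was not counted as moved. Of 1996 results for single pathway and marker genes under the alternatives, 1921 kept their side of the threshold, 62 lost it, 13 gained it and none reversed. Limiting the test to genes at or above the median mean value, which leaves fewer genes to test, gave 1729 falls and 1547 rises over all genes, against 3243 and 2844 in the full table. Among the lists it gave 2 falls for inositol, 0 for kynurenine and NAD, 0 for creatine, 3 for arginine, 5 for glutathione, 6 for acyl-CoA, 2 for tyrosine, 0 for secreted proteins, 1 for androgen, 3 for regulators and 23 for the other enzymes. Leaving out each library in turn gave 1 to 2 falls in the androgen list, with 1 without con1 or con2. Under trimmed-mean scaling 3039 genes fell and 3074 rose, and under quantile normalisation 2912 fell and 3154 rose. The 4 female libraries, a choice made after seeing the data, gave a log2 fold change of -4.96 for Miox and -6.86 for Kap. No paired analysis was possible because the groups share no replicate number. Low coverage limits Ass1, Acmsd, Kap and, in mut2, Miox, and genes below the deposited level of 3400 were not analysed here.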
